A study of Mus musculus with 6 samples.

Results

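The killer lectin-like receptor genes of the mouse, named Klr with a letter and a number, were read with Ncr1 as 1 set of natural killer (NK) cell receptor genes. They were found by symbol, without use of their values, and number 28 of the 55291 genes in the deposited table: 11 of the Klra (Ly49) family and 17 other receptors. Another 4 matching pseudogenes (Klra11-ps, Klra13-ps, Klra14-ps and Klrb1-ps1) were left out. Each of 6 liver tumours was sequenced as 1 bulk library of polyadenylated RNA. The tumours were RIL-175/PD-1R, of a mouse liver cancer line (the labels do not explain PD-1R), and every host had been given anti-PD-1, an antibody that blocks an inhibitory receptor of T cells. The 3 Cre_PD1 tumours came from LysM-Cre mice, which carry the recombinase without the deletion. The 3 MKO_PD1 tumours came from Trem2-MKO mice, in which Trem2 is knocked out in myeloid cells. LysM-Cre acts in macrophages, monocytes and neutrophils, not in NK cells, and the tumour cells carry no Cre of the host. The labels give no age, dose or day and include no host without anti-PD-1. The comparison asks how loss of Trem2 in myeloid cells alters the tumour under this antibody.

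Killer lectin-like receptors are membrane proteins of NK cells, of some T cells and of a few myeloid cells, and most are encoded side by side in the natural killer gene complex. Inhibitory members bind class I major histocompatibility molecules or related ligands and signal through phosphatases, which holds the killing of healthy cells in check. Activating members lack that inhibitory tail and signal through adaptor proteins such as DAP12 (gene Tyrobp) and DAP10 (gene Hcst).

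The results turn on how unlike the levels of closely related Klra genes were, so the bases before the start of 4 of them are shown. Each window holds the 250 bases upstream of the RefSeq start on the minus strand of chromosome 6 (GRCm38.p6), written 5′ to 3′. The windows are chr6:130067272-130067521 for Klra4, chr6:130129899-130130148 for Klra8, chr6:130026955-130027204 for Klra6 and chr6:131247363-131247612 for Klra2. Capitals mark the longest run of bases that all 4 windows hold.
Klra4: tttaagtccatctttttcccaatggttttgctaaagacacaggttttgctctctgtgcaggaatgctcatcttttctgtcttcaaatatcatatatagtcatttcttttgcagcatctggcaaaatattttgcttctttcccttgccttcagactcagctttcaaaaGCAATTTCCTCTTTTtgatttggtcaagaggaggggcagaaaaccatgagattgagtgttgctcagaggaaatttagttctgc
Klra8: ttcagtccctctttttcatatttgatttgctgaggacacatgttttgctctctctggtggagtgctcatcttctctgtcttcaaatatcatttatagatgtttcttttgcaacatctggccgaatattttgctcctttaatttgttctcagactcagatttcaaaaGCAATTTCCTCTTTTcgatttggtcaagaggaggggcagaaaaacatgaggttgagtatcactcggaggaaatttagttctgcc
Klra6: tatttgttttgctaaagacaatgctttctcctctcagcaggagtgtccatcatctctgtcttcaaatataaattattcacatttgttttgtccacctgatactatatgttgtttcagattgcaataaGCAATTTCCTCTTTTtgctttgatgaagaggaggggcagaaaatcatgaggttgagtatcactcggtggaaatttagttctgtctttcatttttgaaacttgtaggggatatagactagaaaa
Klra2: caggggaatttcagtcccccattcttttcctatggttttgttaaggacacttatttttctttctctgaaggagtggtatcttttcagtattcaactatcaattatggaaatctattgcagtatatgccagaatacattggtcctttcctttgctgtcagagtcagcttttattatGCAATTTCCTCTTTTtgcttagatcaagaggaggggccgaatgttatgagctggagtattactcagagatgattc
The shared run, 15 bases long, was present on either strand in 8 of 13 Klra windows. These belong to 7 of the 11 Klra genes with a window (Klra2, Klra3, Klra4, Klra6, Klra8, Klra9 and Klra17). The 4 genes shown hold it by construction, so only Klra3, Klra9 and Klra17 were found by the search. The run was in 0 of 18 windows of other receptors and in 0.0304% of all 32851 promoter windows of this length. The Klra4 and Klra8 windows were identical at 84.5% of the columns of a global alignment, against 79.4% for Klra4 and Klra17 and 70.3% for Klra4 and Klra2. RefSeq windows were found for 25 of the 28 genes, and not for Klrd1, Klrg1 and Klri2. The Runx core TGTGGT, searched on both strands, occurred in 1 of 13 Klra windows and 10 of 18 windows of other receptors, against 14.0% of all windows. Those 10 windows belong to 8 of the 14 other receptor genes with a window. The T-box core GGTGTGA occurred in 0 of the 31 member windows and in 3.33% of all windows. Some genes have several windows that overlap. A match describes the letters and does not show that a factor binds there.

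Levels are in TPM, transcripts in every 1000000, length-normalised over all annotated exons of a gene. Comparisons between genes are approximate. A transcript may use only some of those exons, related genes share stretches of sequence, and the treatment of multi-mapping reads is not given. Recovered reads per library numbered 26923290 to 34484268, and a single read over 1 kb of exon was worth 0.0763 to 0.114 TPM. Trem2 was at 10.5, 16.5 and 14.9 TPM in Cre_PD1 tumours 1 to 3, and at 7.68, 18.0 and 6.81 TPM in MKO_PD1 tumours 1 to 3, with overlapping groups (log2 difference, MKO_PD1 minus Cre_PD1, -0.44, limma adjusted p = 0.432). Reads over the whole gene do not measure the deleted part, which the labels do not name. Hepatocyte list genes took 1.84 to 3.63% of TPM in the Cre_PD1 tumours and 17.9, 4.40 and 12.7% in MKO_PD1 tumours 1 to 3. MKO_PD1 replicate 2 stood apart in genes of several immune cell types. There 14 T cell genes summed to 599 TPM, against 103 to 252 TPM in the other 5 libraries. The 16 NK cell core genes outside the set summed to 1294 TPM there and to between 193 and 476 TPM in the others. Neutrophil genes summed to 1105 TPM there, against 114 to 427 TPM, and macrophage genes to 6424 TPM, against 2531 to 3449 TPM. B cell genes summed to 15.3 TPM there, within the 4.31 to 26.9 TPM of the others. In bulk RNA, fewer cells of a type and less RNA per cell cannot be told apart.

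A gene was tested where it reached 1 TPM in at least 3 of the 6 libraries. This held for 13 of the 28 receptor genes (3 Klra and 10 others), and each of the 13 reached that level in libraries of both groups. None of the 13 passed the adjusted threshold of 0.05 in limma, in either direction, against 0.0121% of all 16506 genes tested (0.00606% higher and 0.00606% lower). The groups did not overlap for 3 of the 13, all lower in MKO_PD1 (Klra4, Klrg2 and Klrh1), against 28.9% lower and 10.1% higher among all genes. At an unadjusted p under 0.05 there were 2 lower in MKO_PD1 (Klra4 and Klrh1) and 0 higher, against 19.5% lower and 8.47% higher among all genes. That split depended on the scaling, with 2 higher and 2 lower under median-of-ratios scaling and 2 higher and 3 lower in voom. The share of all genes at that p was not computed for these fits. Their counts therefore cannot tell the receptors from the background. The median log2 difference was -0.74 over the 3 tested Klra genes, -0.16 over the 10 other receptors and -0.42 over all genes tested. Without MKO_PD1 replicates 1 and 3, which leaves 1 MKO_PD1 tumour, these medians were 0.68, 0.61 and -0.01. Neither sign held throughout: without a filter the median over all 11 Klra genes was 0.11, and that over the 10 other receptors was 0.20 with median-of-ratios scaling and 0.31 with limma voom. The highest of the 6 libraries was MKO_PD1 replicate 2 for 8 of the 13 (23.3% of all genes) and the lowest was MKO_PD1 replicate 1 for 12 of the 13 (70.2% of all genes).

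**Figure D1:**
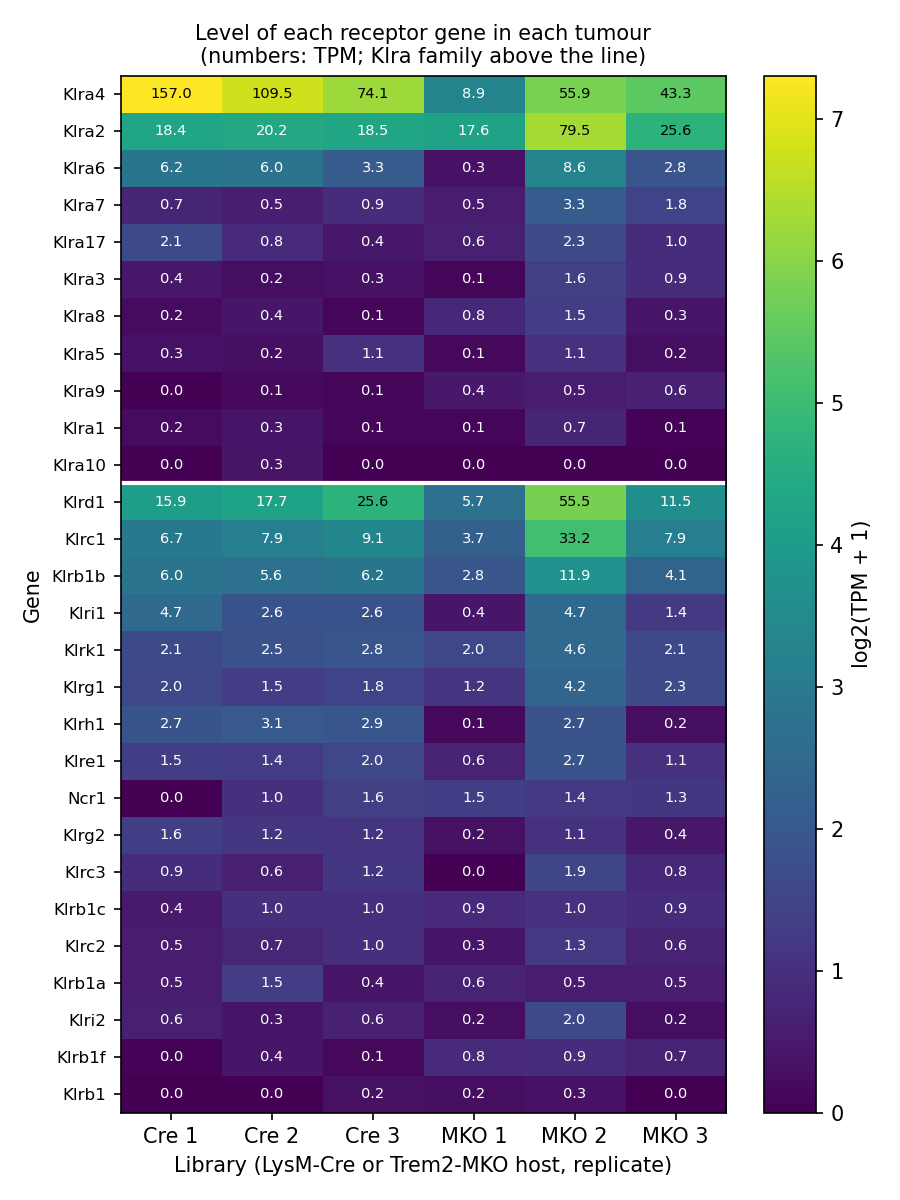
Level of all 28 receptor genes (rows) in each library (columns), coloured by log2(TPM + 1) and printed in TPM, with the 11 Klra genes above the white line. Klra4 is the most abundant gene in all 3 Cre_PD1 tumours, and MKO_PD1 replicate 2 holds the highest value of 20 of the 28 genes.

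Klra4 (ENSMUSG00000079852.4, chromosome 6, 130043731 to 130067271, minus strand of GRCm38) encodes Ly49D, an activating receptor that signals through DAP12. It was at 157, 109 and 74.1 TPM in Cre_PD1 tumours 1 to 3, and at 8.88, 55.9 and 43.3 TPM in MKO_PD1 tumours 1 to 3, from 1987, 1637 and 809 reads against 145, 695 and 570. Every Cre_PD1 tumour lay above every MKO_PD1 tumour, as for 28.9% of all genes tested. The group levels were 114 ± 41.6 and 36.01 ± 24.3 TPM (SD, n = 3 each), a log2 difference of -1.91 (SE 0.64), or 3.75-fold lower in MKO_PD1 on the log2(TPM + 1) scale, which did not pass the correction (limma adjusted p = 0.168). The difference was -1.45 with median-of-ratios scaling, under which the all-gene median was -0.02. Adjusted p ran from 0.0308 to 0.437 over the alternatives, and the value below 0.05 came from the fit without MKO_PD1 replicate 2 (difference -2.39). Without MKO_PD1 replicate 1, the lowest library, the difference was -1.13 (adjusted p = 0.207 in limma), and without MKO_PD1 replicates 1 and 3 it was -0.94 (adjusted p = 0.437).

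Klra4 alone made up 67.8, 58.3 and 46.7% of the summed TPM of the 28 genes in Cre_PD1 tumours 1 to 3, and 17.5, 19.6 and 38.6% in MKO_PD1 tumours 1 to 3. Of the receptors that mark NK cells, Ncr1 did not exceed 1.63 TPM in any library and Klrb1c did not exceed 1.05 TPM. The Klrb1c exons overlap those of the predicted gene Gm44511 over 13.95% of their length. Of its 50-base transcript stretches 17% also occurred in another gene, so reads of that length could not all be assigned. In the NK cell core list, some genes of which T cells also express, a part reached levels like that of Klra4 and others stayed below it. Eomes was at 1.56 to 2.11 TPM in the Cre_PD1 tumours and at 0.606 to 3.42 TPM in the MKO_PD1 tumours. Tbx21 was at 2.17 to 3.39 TPM and at 1.78 to 9.61 TPM, and both were below Klra4 in every library. Named after their values were seen, the chemokine gene Ccl5 was above Klra4 in 5 of the 6 libraries (84.9, 147 and 121 TPM in Cre_PD1 tumours 1 to 3, then 76.9, 571 and 118 TPM), and the granule gene Nkg7 was above it in Cre_PD1 replicate 3 (78.4 TPM) and in MKO_PD1 replicates 1 and 2 (27.6 and 165 TPM). Its transcript could be told from those of its relatives over most of its length: no 100-base stretch of the Klra4 transcript occurred in an annotated transcript of another gene, and 4.68% of its 50-base stretches did. No annotated exon of another gene overlapped it.

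Other genes varied with Klra4 across the libraries. Krt19, a keratin of bile duct and tumour epithelium, was at 4477, 2882 and 2247 TPM in the Cre_PD1 tumours and at 213, 1224 and 868 TPM in the MKO_PD1 tumours. The ratio of Klra4 to Krt19 TPM was 3.51, 3.80 and 3.30% in the Cre_PD1 tumours and 4.18, 4.56 and 4.98% in MKO_PD1. The highest ratio was 1.51 times the lowest, while Klra4 itself spanned 17.7-fold and Krt19 21.1-fold. The groups did not overlap in this ratio and MKO_PD1 was the higher (exact permutation p = 0.1, two-sided, the smallest that 3 against 3 can give). The 8 genes of a simple epithelial list, drawn up after the values were seen, summed to 7816 to 14812.5 TPM in the Cre_PD1 tumours and to 1461 to 4825 TPM in the MKO_PD1 tumours. All 8 were tested and had a log2 difference below 0 (median -1.56), 5 did not overlap between the groups and 0 passed the threshold in limma, with 6 at an unadjusted p under 0.05. Among all 16506 genes tested 12034 had a difference below 0, 28.9% were separate and lower and 19.5% were lower at that unadjusted p. Since the list was chosen on these values, its counts support nothing. The hepatocyte share ran in exactly the opposite order of libraries to Klra4. With the hepatocyte list left out of the scaling, an alternative chosen after seeing the data, the Klra4 difference was -1.78. The part of epithelial or hepatocyte content in the Klra4 difference was not tested.

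**Figure D2:**
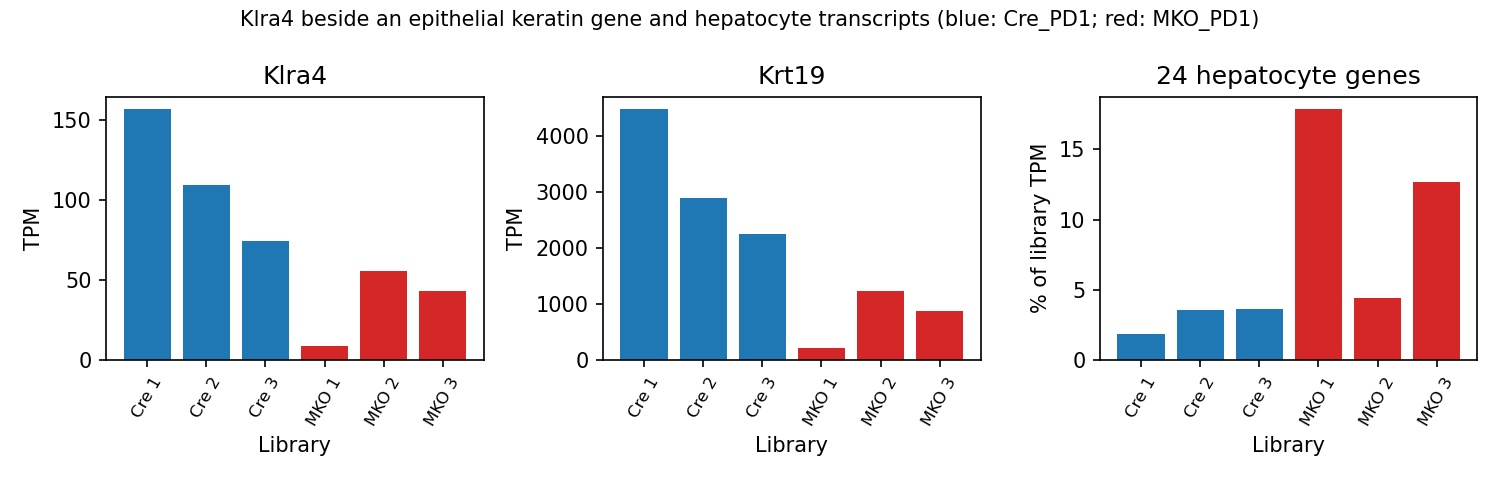
Klra4 (TPM), the keratin gene Krt19 (TPM) and the share of TPM taken by 24 hepatocyte genes (%) in each library, 1 bar per tumour, Cre_PD1 in blue and MKO_PD1 in red. Klra4 and Krt19 share 1 order of the 6 tumours, from Cre_PD1 replicate 1 at the top to MKO_PD1 replicate 1 at the bottom, and the hepatocyte share runs the other way.

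Klra8 encodes Ly49H, the activating receptor that recognises cells infected with mouse cytomegalovirus. Its upstream window is the one most like that of Klra4 among the Klra genes (84.5% identity), and its reads numbered 2, 5 and 1 in the Cre_PD1 tumours and 12, 18 and 4 in the MKO_PD1 tumours, or 0.0969 to 0.353 TPM against 0.321 to 1.53 TPM. The groups overlapped and the gene was too low to be tested. Of its 50-base transcript stretches 33.1% also occurred in another gene, so reads of that length could not all be assigned. The ratio of Klra4 to Klra8 TPM ran from 310 to 940 in the Cre_PD1 tumours and from 11.4 to 135 in the MKO_PD1 tumours.

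Klra2 encodes Ly49B, an inhibitory member known from myeloid cells rather than NK cells. It lies apart from the other Klra genes (ENSMUSG00000030187.15, chromosome 6, 131219223 to 131247362) and, with Klra4 and Klrd1, was among the 3 most abundant of the set in every library. It was at 18.4, 20.2 and 18.5 TPM in the Cre_PD1 tumours and at 17.6, 79.5 and 25.6 TPM in the MKO_PD1 tumours. MKO_PD1 replicate 1 was just below the Cre_PD1 range and the other MKO_PD1 tumours were above it (difference 0.77 ± 0.50 on the log2 scale, SE, adjusted p = 0.296 in limma). Without MKO_PD1 replicate 2 the difference was 0.15. Per TPM of Csf1r, the growth factor receptor gene of macrophages, Klra2 was at 0.225, 0.244 and 0.194 in the Cre_PD1 tumours and at 0.151, 0.448 and 0.194 in the MKO_PD1 tumours. That ratio was below the Cre_PD1 range in MKO_PD1 replicate 1 and above it in MKO_PD1 replicate 2. In the latter, 10 macrophage genes summed to 6424 TPM, against 2531 to 3449 TPM in the other 5 libraries.

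Klra6, which encodes the inhibitory Ly49F and is the nearest gene of the set downstream of Klra4, was at 6.17, 6.04 and 3.27 TPM in the Cre_PD1 tumours and at 0.273, 8.61 and 2.80 TPM in the MKO_PD1 tumours. The groups overlapped, since MKO_PD1 replicate 2 was the highest and MKO_PD1 replicate 1 the lowest of the 6 (difference -0.74 ± 0.67 on the log2 scale, SE, adjusted p = 0.436 in limma). Klra6 reads were 4 in MKO_PD1 replicate 1 and 96 in MKO_PD1 replicate 2.

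The other 8 Klra genes were not tested and did not exceed 3.32 TPM. Klra7 (Ly49G), an inhibitory receptor for class I molecules, had 9, 8 and 10 reads in the Cre_PD1 tumours and 8, 42 and 24 in the MKO_PD1 tumours. Klra3 (Ly49C) had 5, 3 and 3 reads against 1, 20 and 12. Klra9 (Ly49I) was the only one of the 8 whose groups did not overlap, with 0, 2 and 1 reads in the Cre_PD1 tumours and 7, 6 and 8 in the MKO_PD1 tumours. These counts are near the 3 reads that a count of 0 allows. Among all 30804 genes with a value in any library, 7.12% were separate and higher in MKO_PD1. Klra17 (Ly49Q), known from plasmacytoid dendritic cells and other myeloid cells, had 26, 12 and 4 reads against 9, 27 and 12. Klra1 (Ly49A) and Klra5 (Ly49E) had at most 15 reads in any library, and Klra10 (Ly49J) had 3 reads in Cre_PD1 replicate 2 and 0 in the other 5. Klra10, Klra9 and Klra3 shared 39.8, 31.5 and 20.7% of their 50-base transcript stretches with another gene.

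**Figure D3:**
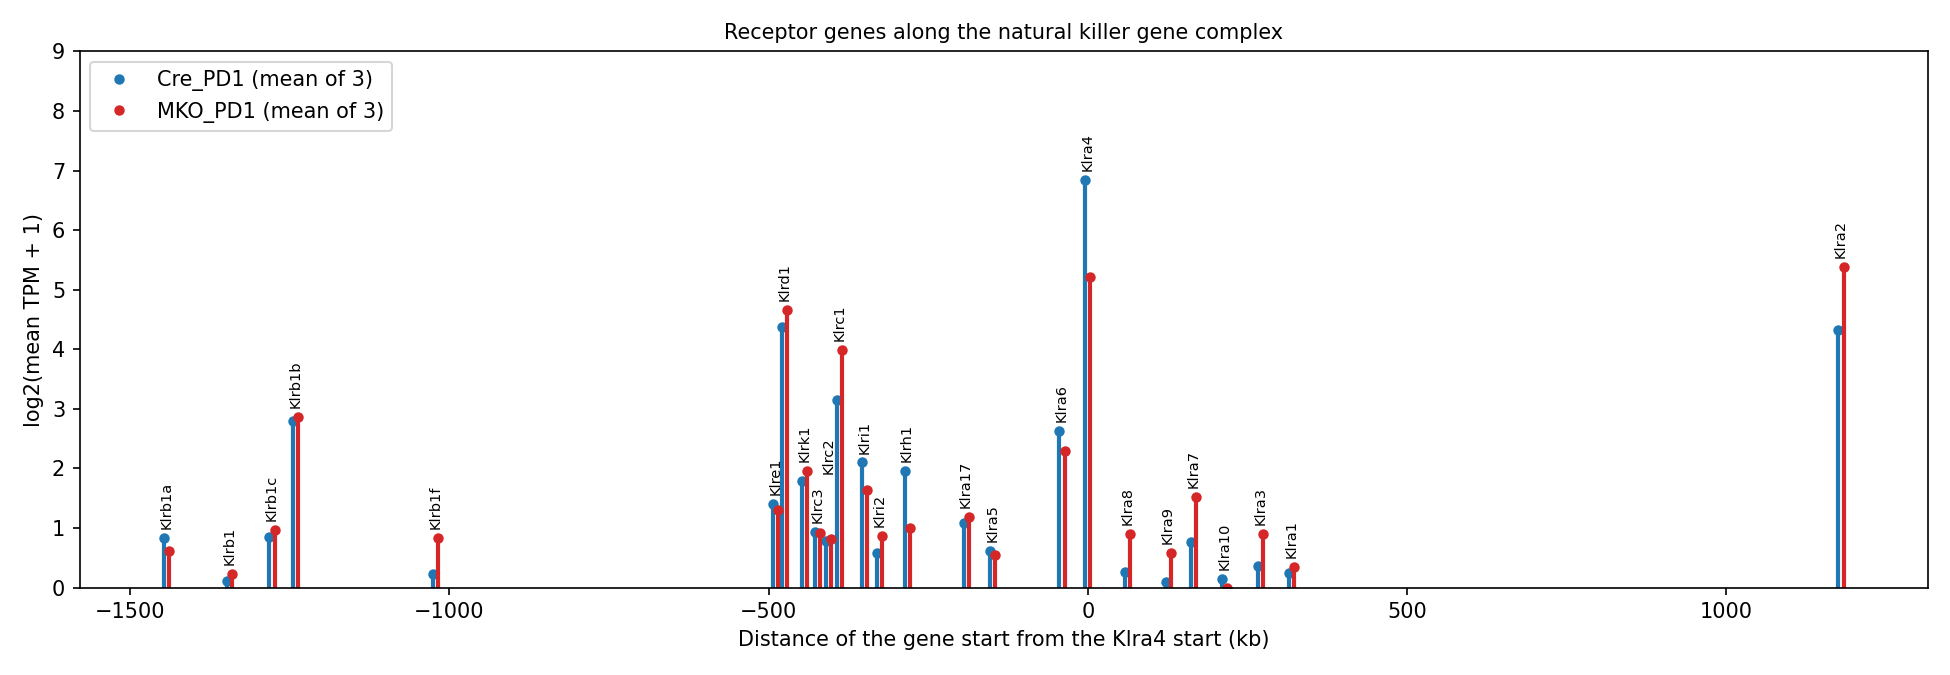
Mean level, as log2(mean TPM + 1) of 3 libraries, of the receptor genes in the natural killer gene complex, placed by the distance of each gene start from the Klra4 start (kb), Cre_PD1 in blue and MKO_PD1 in red. Klra4 stands above its neighbours Klra6 and Klra8 in both groups, and Klrg1, Klrg2 and Ncr1 lie outside the stretch drawn.

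Klrd1 encodes CD94, the chain that pairs with NKG2 proteins on NK cells and on activated CD8 T cells. It was at 15.9, 17.7 and 25.6 TPM in the Cre_PD1 tumours and at 5.66, 55.5 and 11.5 TPM in the MKO_PD1 tumours. The MKO_PD1 tumours lay on both sides of the Cre_PD1 range (difference -0.28 ± 0.70 on the log2 scale, SE, adjusted p = 0.781 in limma). Klrc1 encodes NKG2A, the inhibitory partner of CD94, and the pair binds the class I molecule Qa-1. It was at 6.69, 7.93 and 9.14 TPM in the Cre_PD1 tumours and at 3.73, 33.2 and 7.86 TPM in the MKO_PD1 tumours (difference 0.35 ± 0.65 on the log2 scale, SE, adjusted p = 0.708 in limma). Both genes were highest in MKO_PD1 replicate 2 and lowest in MKO_PD1 replicate 1.

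**Figure D4:**
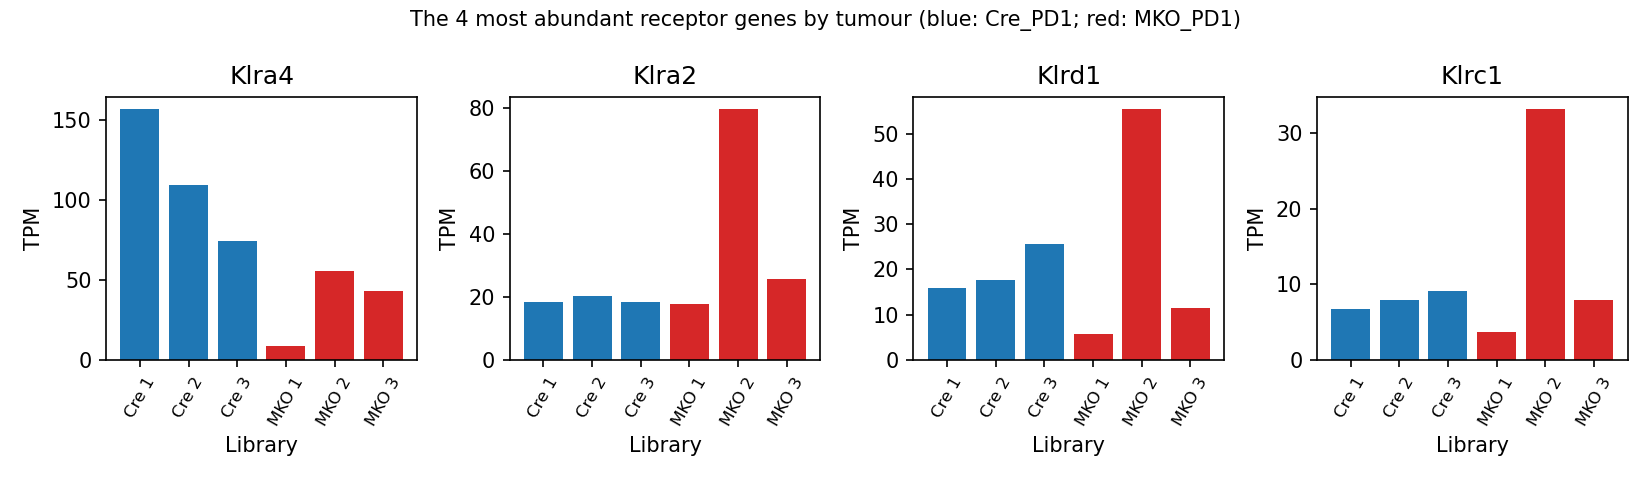
TPM of Klra4, Klra2, Klrd1 and Klrc1 in each of the 6 libraries, 1 bar per tumour, Cre_PD1 in blue and MKO_PD1 in red. MKO_PD1 replicate 2 is the highest for Klra2, Klrd1 and Klrc1 but not for Klra4, which is highest in Cre_PD1 replicate 1.

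Within a library a ratio of 2 genes does not depend on the scaling. The ratio of Klrc1 to Klrd1 TPM was 0.421, 0.449 and 0.358 in the Cre_PD1 tumours and 0.659, 0.598 and 0.683 in the MKO_PD1 tumours, so the groups did not overlap (0.409 ± 0.0466 against 0.647 ± 0.0436, SD, n = 3 each, exact permutation p = 0.1, two-sided). Reads behind it were 97 to 658 for Klrc1 and 95 to 710 for Klrd1. Klrc1 shares 38.6% of its 50-base stretches with other genes and Klrd1 shares 0%. The ratio of Klrd1 to the T cell gene Cd3e was 3.42, 3.37 and 2.96 in the Cre_PD1 tumours and 2.07, 3.18 and 2.47 in the MKO_PD1 tumours. Its highest value was 1.65 times its lowest, while Klrd1 spanned 9.81-fold. The ratio of Klrc1 to Cd8a, a gene of CD8 T cells, ran from 0.393 to 0.486 in the Cre_PD1 tumours and from 0.487 to 0.590 in the MKO_PD1 tumours. In all 12 ratios were computed, chosen after the values were seen. The groups did not overlap in 7, each with an exact permutation p = 0.1 (0.171 after Benjamini-Hochberg adjustment over the 12). The ratios share genes and are not independent.

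**Figure D5:**
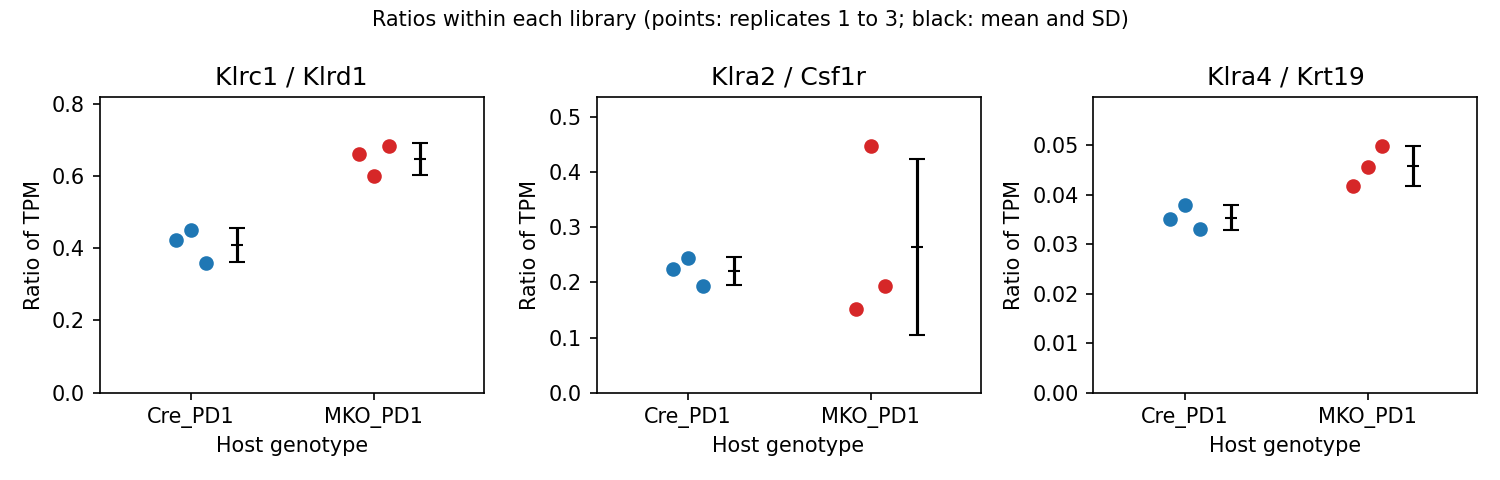
Ratios of TPM within each library for Klrc1 to Klrd1, Klra2 to Csf1r and Klra4 to Krt19, with 1 point per tumour and the mean ± SD of 3 in black. The groups are apart for Klrc1 to Klrd1 (0.358 to 0.449 against 0.598 to 0.683) and for Klra4 to Krt19, and overlap for Klra2 to Csf1r.

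Klrk1 encodes NKG2D, an activating receptor for stress-induced ligands that signals through DAP10. It was at 2.14, 2.49 and 2.76 TPM in the Cre_PD1 tumours and at 1.996, 4.64 and 2.05 TPM in the MKO_PD1 tumours (difference 0.11 ± 0.34 on the log2 scale, SE, adjusted p = 0.824 in limma). The ranges overlapped, with MKO_PD1 replicate 2 above the rest. Klrc2, which encodes the activating NKG2C, had 25 to 77 reads and Klrc3 had 0 to 14. Neither was tested.

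Of the Klrb1 genes, which encode the NKR-P1 receptors for Clec2 proteins, Klrb1b was the most abundant. It encodes the inhibitory NKR-P1B and was at 5.96, 5.64 and 6.20 TPM in the Cre_PD1 tumours and at 2.84, 11.9 and 4.07 TPM in the MKO_PD1 tumours. The Cre_PD1 tumours were close together and the MKO_PD1 tumours lay on both sides of them (difference -0.13 ± 0.46 on the log2 scale, SE, adjusted p = 0.838 in limma). Its exons overlap those of the predicted gene Gm44511 over 26.9% of their length. Klrb1c, which encodes the activating receptor NK1.1, had 13, 35 and 25 reads in the Cre_PD1 tumours and 34, 31 and 29 in the MKO_PD1 tumours. Klrb1f, an activating member, had 1, 9 and 2 reads against 22, 18 and 14 (0.0486 to 0.370 TPM against 0.654 to 0.889 TPM). It was the only gene of the set besides Klra9 that was separate and higher in MKO_PD1. That makes 2 of the 28, near the share of 7.12% among all genes with a value in any library. Without a filter on low values its log2 difference was 0.61 (limma adjusted p = 0.302). Klrb1a had 5 to 29 reads and Klrb1 had 0 to 4.

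Klre1 encodes a chain that pairs with the Klri1 or Klri2 protein to form inhibitory or activating receptors. It was at 1.55, 1.43 and 1.96 TPM in the Cre_PD1 tumours and at 0.611, 2.75 and 1.06 TPM in the MKO_PD1 tumours. Klri1 was at 4.69, 2.58 and 2.59 TPM against 0.364, 4.66 and 1.35 TPM. Both pairs of groups overlapped (limma adjusted p = 0.716 and 0.366), and Klri2, with 9 to 80 reads, was not tested.

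Klrh1 lies among these genes and between Klri2 and the Klra cluster (ENSMUSG00000071158.9, chromosome 6, 129766568 to 129784270). It was at 2.705, 3.12 and 2.85 TPM in the Cre_PD1 tumours and at 0.114, 2.65 and 0.236 TPM in the MKO_PD1 tumours, from 55, 75 and 50 reads against 3, 53 and 5. All MKO_PD1 tumours lay below the Cre_PD1 range, replicate 2 by little. The log2 difference was -1.18 (SE 0.46, limma adjusted p = 0.168) and -0.09 without MKO_PD1 replicates 1 and 3.

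Klrg1 encodes an inhibitory receptor of mature NK cells and effector T cells that binds cadherins. It was at 2.02, 1.53 and 1.78 TPM in the Cre_PD1 tumours and at 1.19, 4.25 and 2.27 TPM in the MKO_PD1 tumours (limma adjusted p = 0.592), with overlapping groups. Klrg2, a relative in another part of chromosome 6 (38625693 to 38637242), was at 1.58, 1.24 and 1.2003 TPM in the Cre_PD1 tumours and at 0.245, 1.05 and 0.387 TPM in the MKO_PD1 tumours. Its groups did not overlap (difference -0.61 ± 0.29 on the log2 scale, SE, adjusted p = 0.196 in limma). It had the same order of the 6 libraries as Klra4, which no other gene of the set had.

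Ncr1, on chromosome 7 (4337724 to 4345164), encodes NKp46, an activating receptor used to identify NK cells. It had 0, 19 and 22 reads in the Cre_PD1 tumours and 31, 21 and 21 in the MKO_PD1 tumours, or 0 to 1.63 TPM against 1.29 to 1.53 TPM. A count of 0 in Cre_PD1 replicate 1 allows up to 0.192 TPM, for counting error only. The groups overlapped (difference 0.45 ± 0.38 on the log2 scale, SE, adjusted p = 0.404 in limma), and without Cre_PD1 replicate 1 the difference was 0.05. Klrd1, Klrc1 and Klra2, unlike Ncr1, were highest in MKO_PD1 replicate 2.

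Set against each other, the Klra genes summed to 185, 139 and 98.7 TPM in the Cre_PD1 tumours and to 29.3, 155 and 76.5 TPM in the MKO_PD1 tumours, and the 17 other receptors to 46.1, 49.2 and 60.2 TPM and to 21.3, 130 and 35.8 TPM. The ratio of the sums was 4.02, 2.82 and 1.64 in the Cre_PD1 tumours and 1.37, 1.19 and 2.14 in the MKO_PD1 tumours, with overlap. Without Klra4 the ratio was 0.617, 0.593 and 0.409 in the Cre_PD1 tumours and 0.957, 0.762 and 0.928 in the MKO_PD1 tumours, with no overlap and in the other direction. Klra2 made up most of the Klra sum that remained: without both genes the Klra family summed to 10.03, 8.97 and 6.14 TPM and to 2.78, 19.6 and 7.63 TPM.

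Leaving out MKO_PD1 replicate 2 brought 5 of the 13 tested genes past the threshold, all lower in MKO_PD1: Klra4, Klrd1, Klrg2, Klrh1 and Klri1 (limma adjusted p = 0.0290 to 0.0400). The background in that fit was 38.0% of all genes lower and 7.88% higher, with 49.0% lower at an unadjusted p under 0.05. Klrd1 then had a log2 difference of -1.15 against 0.39 without MKO_PD1 replicate 1. With MKO_PD1 replicate 2 as the only knockout-host tumour, Klrd1 stood 1.48 and Klrc1 1.95 above Cre_PD1 on the log2 scale (adjusted p = 0.202 and 0.183), where the lone tumour is assumed to vary like the others.

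Genes that serve these receptors were described from lists. Of 12 adaptor and signalling genes, 11 were tested and 0 passed the threshold in limma (0 also at an unadjusted p under 0.05). A log2 difference above 0 was found for 10 of the 11, against 4472 of all 16506 genes tested (median 0.51 against -0.42 for all genes). Tyrobp, the adaptor of Ly49D and Ly49H that macrophages also express, was at 219, 290 and 230 TPM in the Cre_PD1 tumours and at 276, 614 and 311 TPM in the MKO_PD1 tumours. The ratio of Klra4 to Tyrobp was 0.322 to 0.718 in the Cre_PD1 tumours and 0.0322 to 0.139 in the MKO_PD1 tumours, without overlap. The other adaptor and signalling genes of smallest p were Lcp2, Syk and Hcst, at 16.0, 12.1 and 10.7 TPM on average in the Cre_PD1 tumours and at 28.7, 20.7 and 19.1 TPM in the MKO_PD1 tumours. Of 3 inhibitory phosphatase genes 0 passed (0 at an unadjusted p under 0.05). Ptpn6, which encodes the phosphatase SHP-1, was at a mean of 48.3 TPM in the Cre_PD1 tumours and 75.4 TPM in the MKO_PD1 tumours. Its groups did not overlap, as for 10.1% of all genes in that direction. The other phosphatase genes overlapped between the groups. Ptpn11 was lower on average in MKO_PD1 (63.6 and 42.8 TPM) and Inpp5d higher (12.0 and 17.3 TPM).

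The ligand list held 21 genes, of which 12 were tested, 0 passed in limma, and 3 were higher and 1 lower at an unadjusted p under 0.05, against 8.47% and 19.5% of all genes. Of the 12, 5 had a log2 difference above 0 and 7 below (median -0.215 against -0.42 for all genes). Among all 16506 genes tested, 4472 were above 0. Clec2d, which encodes the ligand of NKR-P1B, was at 110 ± 17.0 TPM in the Cre_PD1 tumours and at 199 ± 14.6 TPM in the MKO_PD1 tumours (SD, n = 3 each, log2 difference 0.85, limma adjusted p = 0.168). Clec2h, another Clec2 gene, was at 0.743 ± 0.688 and 4.07 ± 2.59 TPM, and Raet1d, which encodes a ligand of NKG2D, at 4.18 ± 2.14 and 12.2 ± 4.73 TPM. The groups of these 3 did not overlap, as for 10.1% of all genes in that direction. Cdh1, which encodes E-cadherin, a ligand of the Klrg1 receptor, was at 128 ± 24.9 and 69.5 ± 39.3 TPM, with overlap.

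Of 13 genes of NK-activating cytokines and their receptors, 9 were tested and 0 passed in limma, with 2 higher and 1 lower at an unadjusted p under 0.05, against 8.47% and 19.5% of all genes. Il18, which encodes a cytokine that activates NK cells, was at 14.6 ± 3.73 TPM in the Cre_PD1 tumours and at 35.2 ± 11.9 TPM in the MKO_PD1 tumours. Il15ra, which encodes the receptor chain that presents interleukin 15, was at 11.2 ± 4.66 and 21.5 ± 0.309 TPM, and Il18rap, a chain of the interleukin 18 receptor, at 42.1 ± 4.47 and 19.1 ± 15.5 TPM. Adjusted p was 0.168 for Il18 and Il15ra and 0.174 for Il18rap in limma.

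Marker lists of cells that could carry these receptors were read in the same way, and 0 genes of any of them passed the threshold in limma. Of the NK cell core genes 15 of 16 were tested, with a median log2 difference of -0.07. In limma 1 was lower at an unadjusted p under 0.05, against 19.5% of all genes. This was Itga2, at 97.3 ± 37.0 TPM in the Cre_PD1 tumours and 32.7 ± 27.2 TPM in the MKO_PD1 tumours. Itga2 was highest in Cre_PD1 replicate 1 (138 TPM) and lowest in MKO_PD1 replicate 1 (6.34 TPM), as Klra4 and Krt19 were. The core genes Ccl5, Eomes and Tbx21 were highest in MKO_PD1 replicate 2. The cell source of Itga2 was not tested. Medians were 0.05 over 14 T cell genes, 0.32 over 6 genes of liver-resident type 1 innate lymphoid cells, 0.54 over 10 macrophage genes, 0.05 over 6 plasmacytoid dendritic cell genes, 1.71 over 9 neutrophil genes, 0.44 over 3 B cell genes and 1.78 over 24 hepatocyte genes. At an unadjusted p under 0.05 there were 24 of the hepatocyte genes, 6 of the neutrophil genes and 2 of the macrophage genes, all higher in MKO_PD1, against 8.47% of all genes. Neutrophil genes summed to 114 to 224 TPM in the Cre_PD1 tumours and to 277, 1105 and 427 TPM in MKO_PD1 tumours 1 to 3.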

How the data were processed

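Bulk RNA libraries of 6 tumours, 3 per group by the labels, were compared. Reads were aligned with STAR 2.7.10a to mm10 and counted with featureCounts 2.0.3, per the submitters' processing notes, and the annotation, strand setting and treatment of multi-mapping reads are not given in the sources used here. The deposited table is a length-normalised signal, which the authors name TPM although its columns do not sum to 1000000. Multiplied by exon length and divided by 8.03, the values gave whole reads (within 0.01) for 98.5% of genes with a length and a value. Columns were rescaled to 1000000, and the test assumed for TPM was kept. Genes at 1 TPM or more in at least 3 libraries were fitted as log2(TPM + 1) in limma 3.58.1 (R 4.3.3, mean-variance trend, unblocked), p-values were adjusted by Benjamini-Hochberg over every gene tested, with a threshold of 0.05. The fit was tested on simulated counts with known fold changes. No simulated library was made to stand apart, so that test does not cover the spread between these tumours. All 28 receptor genes are accounted for. By rule at most 4 genes per list, those of smallest unadjusted p in limma, were named. Nkg7, Cd3e, Cd8a, Krt20, Ulbp1 and Raet1e were named outside that rule, after the values were seen. Members and lists were chosen with earlier results of these data known, and the simple epithelial list, Krt19 and the ratios after the values were seen. The series' design text gives 3 mice per group, and the labels do not tie libraries to mice, so p-values measure the spread between these samples. Intervals for 0 reads cover counting error only.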

Additional observations from a re-analysis of the deposited data

How the results depend on the processing

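Over 16 alternatives the 13 tested receptor genes gave 201 values, of which 177 kept direction and side of the threshold, 5 passed it and 19 reversed. Klra2, Klra4, Klrg2, Klrh1 and Ncr1 did not reverse in any of them, but their size moved. With 1 library left out, Klra2 ran from 0.15 to 1.21, Klra4 from -2.39 to -1.13, Klrg2 from -0.83 to -0.47, Klrh1 from -1.73 to -0.87 and Ncr1 from 0.05 to 0.75. Without MKO_PD1 replicates 1 and 3 Klra2 was at 2.01, Klra4 at -0.94, Klrg2 at -0.19 and Klrh1 at -0.09, and voom gave Ncr1 2.37. The number of receptor genes past the threshold was 0 to 5 when 1 library was left out (5 without MKO_PD1 replicate 2) and 0 in all other alternatives. The number of all genes past it was 2, and 0 without a filter, with a filter of 5 TPM, with the replicate block and with limma voom, 1 with median-of-ratios scaling, 1 without MKO_PD1 replicates 1 and 3, and 0 to 7314 when 1 library was left out. At an unadjusted p under 0.05 1398 genes were higher and 3214 lower in the reported fit. Medians ran from -1.45 to 0.01 over the Klra genes and from -0.59 to 0.25 over the others when 1 library was left out, and were 0.68 and 0.61 without MKO_PD1 replicates 1 and 3. Without a filter the Klra median was 0.11, and the other median was 0.20 with median-of-ratios scaling and 0.31 with voom. Median-of-ratios scaling gave Klrb1b 0.25, Klrd1 0.15 and Klre1 0.047, and voom gave 0.34, 0.27 and 0.12. Without MKO_PD1 replicates 1 and 3, Klra6 was at 0.68, Klrb1b 0.90, Klrc1 1.95, Klrd1 1.48, Klre1 0.51, Klrg1 0.92, Klri1 0.44 and Klrk1 0.71. With 1 library left out, Klra6 ran from -1.45 to 0.01, Klrb1b from -0.65 to 0.23, Klrc1 from -0.45 to 0.97, Klrd1 from -1.15 to 0.39, Klre1 from -0.53 to 0.074, Klrg1 from -0.049 to 0.58, Klri1 from -1.22 to -0.20 and Klrk1 from -0.19 to 0.26. The cause was not tested. Voom, the scaling without hepatocyte genes and the fit without MKO_PD1 replicates 1 and 3 were chosen after seeing the data. Same-numbered libraries did not deviate together (correlations -0.42, -0.27 and 0.05). With 3 libraries per group these correlations cannot decide whether the numbers pair the libraries. With the replicate block 0 receptor genes passed. Genes with a few reads, such as Klra8, Klra9 and Klra10, are limited by depth.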

Other observations

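The order of the 6 libraries by Klra4 level, from Cre_PD1 replicate 1 down to MKO_PD1 replicate 1, was shared by 955 of the 16506 genes tested (5.79%), and 479 (2.90%) had the reverse order. Among the 8 simple epithelial genes 5 had the Klra4 order (Krt8, Krt18, Krt19, Krt20 and Krt23). Among the 24 hepatocyte genes 6 had the reverse order. Of the pseudogenes left out, Klra13-ps was covered by 5, 4 and 3 reads in the Cre_PD1 libraries against 21, 20 and 8, and Klra11-ps had 0 in all 6 libraries.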
